A study of Homo sapiens with 2 samples.

Results

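CSF1R encodes the receptor for colony-stimulating factor 1, and its ligands are encoded by CSF1 and IL34. These 3 genes were looked up by symbol among the named probes of 2 Illumina bead arrays, and every probe found was used. A named probe was found for 1 of the 3 genes, CSF1R, with 1 probe. Names were available only for probes of the authors' processed table, which holds 16871 of the 47316 probes that carried a signal. A gene without a named probe here may thus still have a probe on the arrays. Neither CSF1 nor IL34 had a named probe, so the levels of the ligands were not analysed here. CSF1R was chosen by its intensities on these same arrays, near background with control siRNA and far above it with SCTR siRNA, so its values are a description and carry no test.

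The arrays measured MCF-10A, an established line of non-malignant breast epithelial cells, after transfection with an siRNA against SCTR, the secretin receptor gene, or with a negative control siRNA. Each group had 1 sample on 1 array, and the labels name no siRNA sequence, dose or time. There was thus no replicate error for any difference and no p-value between groups, and the small number of arrays limits how precise each value is. SCTR had 0 named probes, so the knockdown was not checked and every direction rests on the array labels. The 10161 genes with a name included the epithelial genes CDH1, EPCAM and KRT8 and the basal genes EGFR, CDH3 and LAMB3, all detected on both arrays. Keratins 5, 14 and 17 and TP63, which also define basal mammary cells, had no named probe. In bulk RNA, a change in the number of cells that express a gene cannot be told apart from a change in RNA per cell.

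CSF1R is a receptor tyrosine kinase with a kinase domain split by an insert. Ligand binding pairs the receptor molecules, which then phosphorylate each other and recruit adaptors that lead to PI3 kinase, MAP kinase and STAT signalling. It is best known for keeping monocytes, macrophages, microglia and osteoclasts alive and dividing. In the breast it is known from the epithelium of the pregnant and lactating gland and from carcinomas. CSF1 and IL34 bind the same receptor although their sequences are not alike.

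CSF1R transcription is known to begin at a proximal promoter in macrophages and at a distal one in trophoblast cells of the placenta. RefSeq windows for both were available (build GRCh38.p14, minus strand), each from 250 bases before to 50 bases after an annotated start, and the starts lay 26.8 kb apart. The windows are shown because the transcription factors described further on are known for their sites in such promoters. Capitals mark matches to GAGGAA, the core of sites for PU.1 and other ETS factors, to TGTGGT, a RUNX site, and to TGANTCA, an AP-1 site. Both strands were searched, and TATAAA was searched too, with 0 matches in either window.
CSF1R proximal window, chr5:150086505-150086804: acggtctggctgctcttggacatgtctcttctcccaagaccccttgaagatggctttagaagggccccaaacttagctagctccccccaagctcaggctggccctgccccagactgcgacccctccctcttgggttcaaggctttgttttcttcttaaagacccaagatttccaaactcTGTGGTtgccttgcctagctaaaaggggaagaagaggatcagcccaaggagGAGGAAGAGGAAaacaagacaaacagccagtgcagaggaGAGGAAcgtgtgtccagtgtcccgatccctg
CSF1R distal window, chr5:150113316-150113615: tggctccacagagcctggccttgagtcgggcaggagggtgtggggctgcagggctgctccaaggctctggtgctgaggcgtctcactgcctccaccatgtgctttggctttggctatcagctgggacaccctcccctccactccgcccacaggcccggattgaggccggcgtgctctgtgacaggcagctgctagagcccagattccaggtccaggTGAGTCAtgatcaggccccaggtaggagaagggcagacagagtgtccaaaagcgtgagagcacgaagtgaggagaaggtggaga

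The proximal window held 3 matches to GAGGAA, a pair of them side by side starting 20 and 14 bases before the start, and 1 match to TGTGGT starting 71 bases before it. No 2 of these matches overlapped. Of 35116 RefSeq windows of the same length, 27.9% held at least 1 GAGGAA match, 0.649% held 3 or more, and 13.1% held TGTGGT. The distal window held 1 match to TGANTCA, starting 34 bases before the start, as 7.71% of all windows did, and none to GAGGAA or TGTGGT. A match is a description of the letters only. No source used here places the array probe within CSF1R, and which start the measured transcripts came from was not analysed.

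The CSF1R probe had an intensity of 1909 on the SCTR siRNA array and 163.9 on the negative control siRNA array. Its detection p, the share of the array's negative control probes that are at least as bright, was 0 on the SCTR siRNA array and 0.0065 on the control array. The detection p moved in steps of 0.0013, which corresponds to 770 negative controls, so 0 of them were as bright as CSF1R on the SCTR siRNA array and 5 were on the control array. The probe thus stood clear of background on the SCTR siRNA array and just above it on the control array, where the dimmest probe with a detection p under 0.01 was at 154.7.

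**Figure D1:**
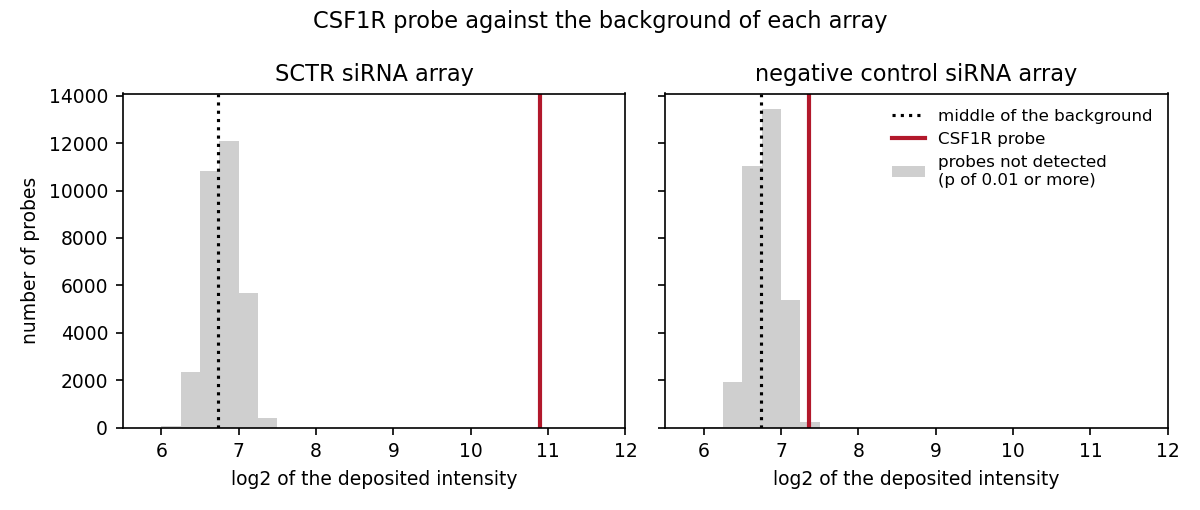
Histograms of log2 intensity for probes that were not detected (detection p of 0.01 or more) on the SCTR siRNA array, left, and the negative control siRNA array, right, with the number of probes on the vertical axis. The red line is the CSF1R probe, at an intensity of 1909 on the SCTR siRNA array and 163.9 on the control array, and the dotted line is the middle of the background, at 106.5 on the SCTR siRNA array and 107.1 on the control array.

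The middle of the background, taken from probes with a detection p near 0.5, was at 106.5 on the SCTR siRNA array and 107.1 on the control array. CSF1R exceeded it by 1802 intensity units on the SCTR siRNA array and by 56.8 on the control array. The ratio of SCTR siRNA to control was 11.6 for the plain intensities and 31.7 for the parts above background. The size of the difference therefore depended on how the background was treated, while its direction did not.

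After background correction and quantile normalization, CSF1R had a log2 level of 10.81 on the SCTR siRNA array and 6.24 on the control array. The difference was 4.57 on the log2 scale, or 23.8-fold higher on the SCTR siRNA array. Among 8661 genes detected on both arrays it stood second from the top, below F3. Genes not detected on the control array were left out of this ranking, such as ABCC2, whose plain difference was 4.73. By the same measure 9.74% of the 8661 genes (844) were higher by 2-fold or more, 8.44% (731) were lower by 2-fold or more, and the median over all of them was -0.09. Nothing is read from CSF1R being among the higher genes, since it was chosen for that.

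The difference was 3.49 (11.2-fold) without background correction and 3.48 (11.2-fold) in the processed values that the authors deposited. It was 4.06 with a larger offset in the correction and 4.60 with median scaling. On the SCTR siRNA array the 5 log2 levels lay between 10.79 and 10.88, and on the control array between 6.19 and 7.39, so the settings moved the dim value far more than the bright one. CSF1R stood second under both corrections and median scaling, and at rank 4 without correction and in the authors' values, where CXCL8 and ADGRG1 also lay above it. Under a stricter detection p of 0.005, an alternative chosen after seeing the data, CSF1R counted as detected on the SCTR siRNA array only, and its difference became a bound of 4.45 on the background-corrected log2 scale. Such bounds hold on that scale alone, since uncorrected intensities include the background and give smaller ratios.

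**Figure D2:**
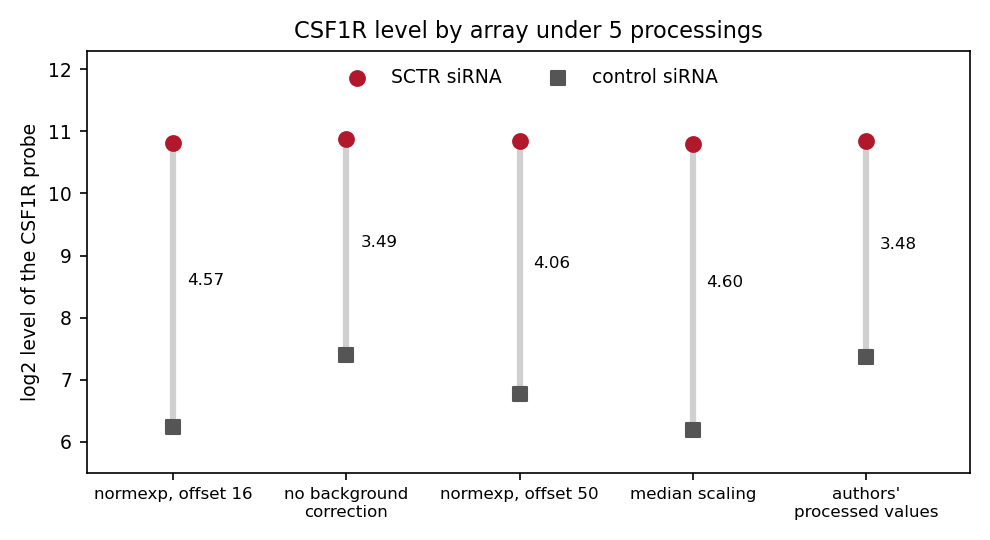
Log2 level of the CSF1R probe (vertical axis) on the SCTR siRNA array (circles) and the control siRNA array (squares) under 5 ways of processing, with the difference printed beside each pair. The SCTR siRNA levels lie between 10.79 and 10.88 and the control levels between 6.19 and 7.39.

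The genes with a difference nearest to that of CSF1R were ABCC2, F3, CXCL8, HBEGF and ABCA12, by absolute distance on the log2 scale over these 2 arrays. ABCC2, an exporter of organic anions, had intensities of 1144 on the SCTR siRNA array and 127 on the control array, where its detection p was 0.10. Its place in this ranking came from a plain difference of 4.73, which used that undetected control level. As a bound, ABCC2 was at least 15.8-fold higher on the background-corrected scale, and its log2 difference was 3.08 in the authors' values. F3, which encodes tissue factor, had intensities of 9406 on the SCTR siRNA array and 386.1 on the control array, a difference of 4.94. CXCL8, a chemokine gene, had 28671 on the SCTR siRNA array and 1930 on the control array, a difference of 4.03, with 4.48 by its other probe.

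HBEGF, a ligand of the EGF receptor, had intensities of 1369 on the SCTR siRNA array and 166.5 on the control array, a difference of 4.02, and 2.97 in the authors' values. ABCA12, a lipid transporter of keratinocytes, had 1909 on the SCTR siRNA array and 214.7 on the control array, a difference of 3.78, and 3.09 in the authors' values. HBEGF shared the control detection p of CSF1R, 0.0065. The named probes detected on both arrays with a control detection p at or above that value numbered 309, and their differences had a median of 0.23 and a range of -0.37 to 4.57. Of the 309, 45 were at least 2-fold higher, against 9.74% of all genes, and 0 were at least 2-fold lower. CSF1R was the highest and HBEGF the next. Nothing is read from that place of CSF1R, since it was chosen for a large rise from near background. A probe in this set could not be much lower on the SCTR siRNA array, since it had to be detected there. The set was also picked for dim control values, so its differences lean to the higher side. It counts probes, while the share over all is of genes. The count of 45 is therefore not read as an excess.

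**Figure D3:**
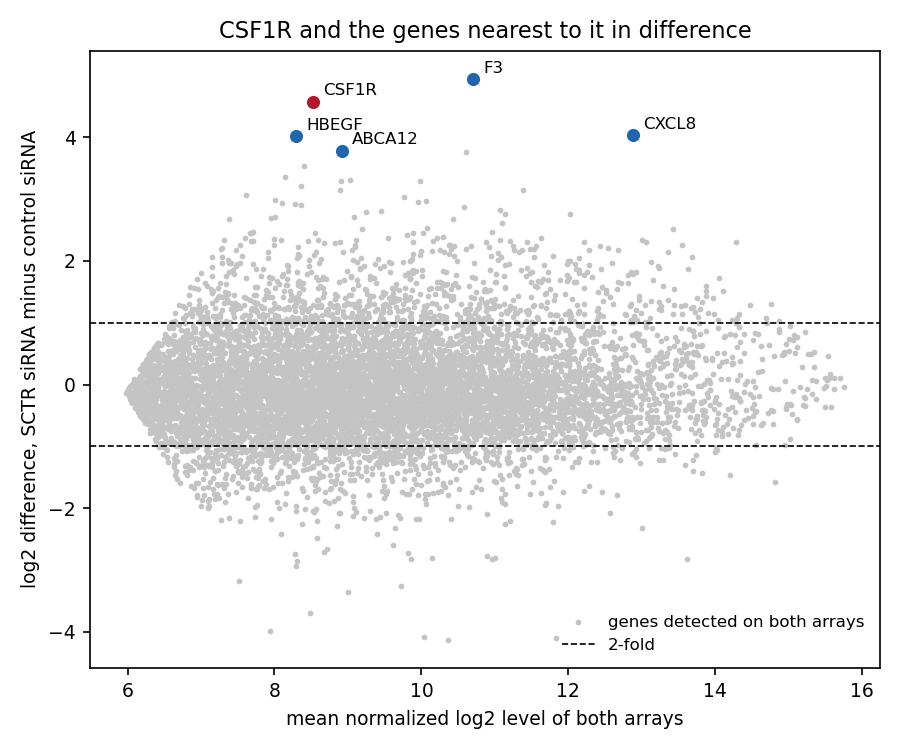
Log2 difference, SCTR siRNA minus control siRNA (vertical axis), against the mean normalized log2 level of both arrays (horizontal axis) for 8661 genes detected on both. CSF1R (red) is at 4.57 and the blue points are F3, CXCL8, HBEGF and ABCA12, at 4.94, 4.03, 4.02 and 3.78, and dashed lines mark 2-fold.

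The genes beside CSF1R on chromosome 5 were compared through their order in the RefSeq table, taking the 5 nearest with a named probe on each side. HMGXB3, with 0 protein-coding genes between it and CSF1R, had intensities of 2469 on the SCTR siRNA array and 1918 on the control array, a difference of 0.34. PDGFRB, a related receptor kinase gene known to lie directly beside CSF1R on the other side, had no named probe. Of the 10 neighbours, 8 were detected on both arrays, with differences from -0.57 (DCTN4) to 1.13 (ARHGEF37, 1.29 by its other probe and 0.81 in the authors' values), with 1 past 2-fold on the higher side, against 9.74% of all genes, and 0 on the lower. PPARGC1B, a transcriptional coactivator, was detected on the SCTR siRNA array only, with 4 protein-coding genes between it and CSF1R. It was at least 2.27-fold higher on the background-corrected scale, but its log2 difference was 0.75, under 2-fold, in the authors' values. The remaining differences were 0.67 for SLC26A2, 0.70 for NDST1, -0.43 for RPS14, -0.45 for TIGD6 and -0.46 for RBM22, and CD74 was detected on the SCTR siRNA array only, with a log2 difference of 0.27 in the authors' values.

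**Figure D4:**
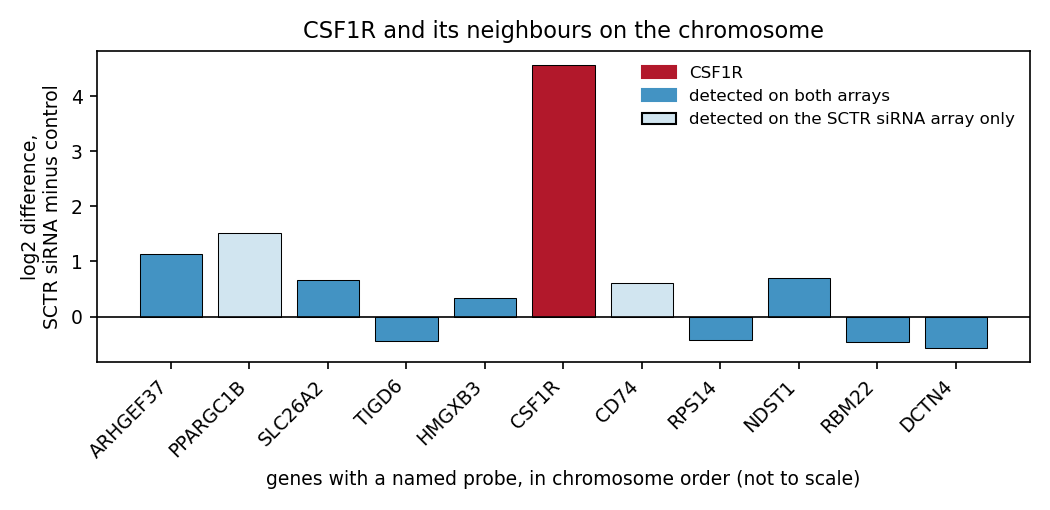
Log2 difference, SCTR siRNA minus control siRNA, for CSF1R (red) and the 5 nearest genes with a named probe on each side, in chromosome order and not to scale. CSF1R is at 4.57 and the neighbours detected on both arrays (dark blue) lie between -0.57 and 1.13, with light bars for PPARGC1B and CD74, detected on the SCTR siRNA array only.

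Around the ligand genes, whose own levels were not analysed here, the nearest named genes detected on both arrays lay within 2-fold. So did 7086 of all 8661 genes detected on both arrays. For CSF1, on chromosome 1, 9 of 10 neighbours were detected on both arrays and ranged from -0.53 to 0.48. The next gene to CSF1, AHCYL1, was at 0.48. For IL34, on chromosome 16, 9 of 10 were detected on both and ranged from -0.87 to 0.71, with the splicing factor gene SF3B3 at 0.17 and VAC14 at 0.71.

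Genes that act on the ligands or on the receptor outside the cell included 2 that were more than 2-fold higher with SCTR siRNA, SDC1 and ADAM17. Of 10 in the list, 4 had a named probe and all 4 were positive, against 44.5% of all genes. Their median was 1.14 and 2 were past 2-fold, against 9.74% of all genes on the higher side. SDC1, which encodes syndecan-1, a cell surface proteoglycan known to bind IL34, had intensities of 10853 on the SCTR siRNA array and 1672 on the control array, a difference of 2.76. ADAM17, the protease known to release the outer parts of CSF1R and of membrane-bound CSF1, had 2261 on the SCTR siRNA array and 873.5 on the control array, a difference of 1.44, with 0.85 by its other probe. The related protease gene ADAM10 was at 0.54 (0.44 by its other probe) and the matrix protein gene TGFBI at 0.84. PTPRZ1 and TREM2, other receptors described for IL34, had no named probe.

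Genes whose proteins carry or limit the signal inside the cell were mostly within 2-fold. Of 32, 27 had a named probe and 23 were detected on both arrays, with a median of -0.30 against -0.09 over all genes. Of these 23, 16 were negative, where 55.5% of all genes were, and 19 were within 2-fold. On the lower side 4 were past 2-fold, against 8.44% of all genes, and on the higher side 0, against 9.74%. The median was nearer to 0 in the authors' values, at -0.12, with the same number at least 2-fold lower. STAT3, a transcription factor activated by cytokine receptors, had intensities of 2078 on the SCTR siRNA array and 5100 on the control array, a difference of -1.35, with -1.61 and -1.34 by its other probes. MAPK3, which encodes the MAP kinase ERK1, had 929.9 on the SCTR siRNA array and 1917 on the control array, a difference of -1.16 (-1.05 by its other probe).

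PLCG2, a phospholipase of myeloid cells and B cells, had intensities of 231.9 on the SCTR siRNA array and 498.8 on the control array, a difference of -1.67. SOCS3, an inhibitor of cytokine signalling, had 168.1 on the SCTR siRNA array, close to background, and 330.8 on the control array, a difference of -1.78. It was at -1.0 in the authors' values, and at -0.51 by its other probe, which was not detected on both arrays. The adaptor gene GAB1 was not detected on the SCTR siRNA array, where it was at least 2.31-fold lower on the background-corrected scale, but its log2 difference was -0.90, under 2-fold, in the authors' values. The differences lay within 2-fold for the adaptor genes GRB2 (-0.11), SHC1 (-0.62) and GAB2 (-0.45), for STAT5B (-0.92) and for the PI3 kinase subunit gene PIK3R1 (-0.90, but 0.11 by its other probe). The Src-family kinase genes did not share a direction, with LYN at 0.77, SRC at 0.66 and FYN at -0.32. CBL, which encodes the ubiquitin ligase known to target active CSF1R, was at 0.19 and -0.19 by its probes.

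Transcription factors known for a role at the CSF1R gene, or for related binding sites, were spread to both sides of 0. Of 28, 21 had a named probe and 19 were detected on both arrays, with a median of -0.11. On the lower side 4 were past 2-fold, against 8.44% of all genes, and on the higher side 0, against 9.74%. SPI1, which encodes PU.1, the main activator of CSF1R in macrophages, had no named probe. RUNX1, a partner of PU.1 at the proximal promoter, had intensities of 530.4 on the SCTR siRNA array and 318.2 on the control array, a difference of 0.88. The C/EBP genes were at 0.24 (CEBPA), -0.44 (CEBPB) and -0.91 (CEBPD), and ETS1 was at 0.38.

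Among AP-1 genes, FOS had intensities of 1994 on the SCTR siRNA array and 7528 on the control array, a difference of -1.97. JUN had 1722 on the SCTR siRNA array and 888.1 on the control array, just under 2-fold higher at 1.00, and JUND was at 0.82, while JUNB was at -0.75. FOS thus stood opposite to JUN, with which its protein pairs. The other genes at least 2-fold lower were KLF4 (-1.20, and -1.50 by its other probe), ATF3 (-1.18) and ETS2 (-1.18). RUNX2 and RUNX3 were not detected on either array.

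Genes known to respond to CSF1 or other growth factors had a median of 0.10 over 20 members detected on both arrays, of 26 in the list, with 4 past 2-fold on the higher side, against 9.74% of all genes, and 3 on the lower, against 8.44%. Of these 20, 4 also belong to the list of transcription factors. PLAU, which encodes the urokinase plasminogen activator, had intensities of 7992 on the SCTR siRNA array and 980.4 on the control array, a difference of 3.14. HK2 (2.20, and 1.60 by its other probe), IER3 (2.19) and the MAP kinase phosphatase gene DUSP6 (1.19) were the others on the higher side, and FOS, ETS2 and DUSP1 (-1.02) made up the lower side. MYC was at 0.41, CCND1, which encodes cyclin D1, at 0.11 and EGR1 at 0.18. The list therefore had no common direction.

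**Figure D5:**
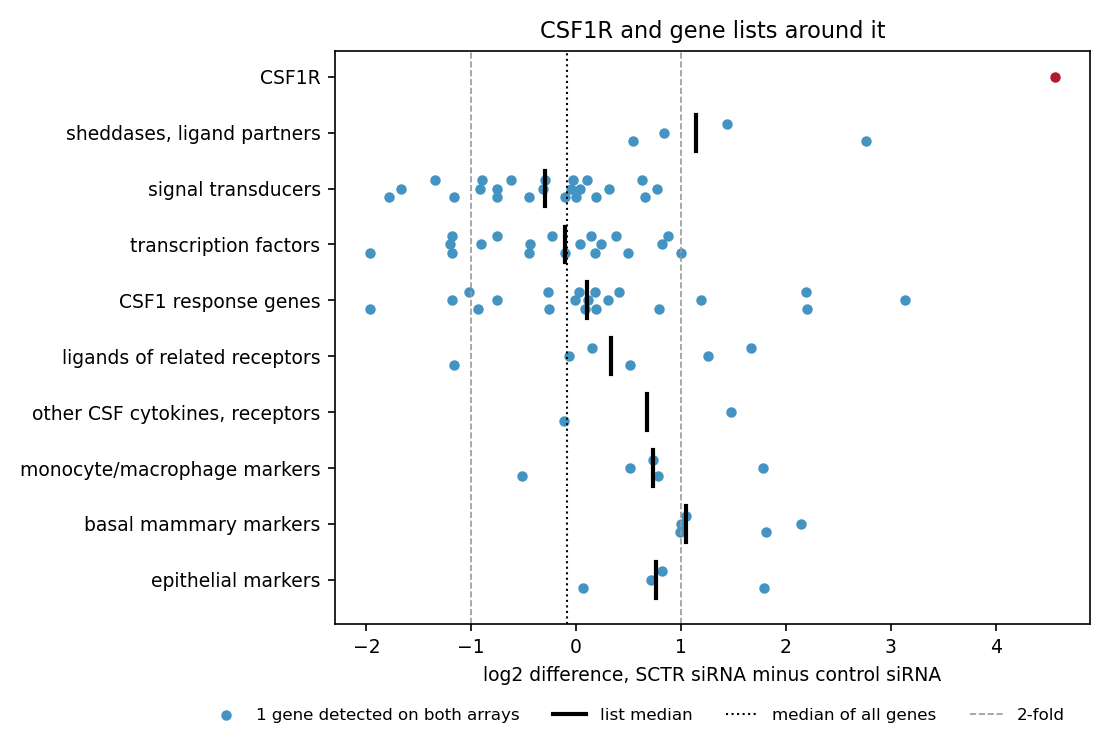
Log2 difference, SCTR siRNA minus control siRNA (horizontal axis), of CSF1R (red) and of each gene detected on both arrays (blue) in 9 lists, with a black bar at each list's median, a dotted line at the median of all genes (-0.09) and dashed lines at 2-fold. CSF1R is at 4.57, and the list medians run from -0.30 for the signal transducers to 1.14 for sheddases and ligand partners.

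The closest relatives of CSF1R among receptor kinases, KIT, FLT3, PDGFRA, PDGFRB, FLT1, KDR and FLT4, had 0 named probes among 7 genes. Of 10 genes for ligands of these relatives, 6 were detected on both arrays, with a median of 0.33. VEGFA had intensities of 677 on the SCTR siRNA array and 263.9 on the control array, a difference of 1.67, and VEGFC was at 1.26. PDGFD was at -1.16, and at -0.82 in the authors' values, under 2-fold. KITLG (0.51), VEGFB (0.15) and PDGFA (-0.07) lay within 2-fold.

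Other colony-stimulating factors and related cytokines had a named probe for 4 of 13 genes. CSF2RA, the ligand-binding chain of the receptor for granulocyte-macrophage colony-stimulating factor, had intensities of 5626 on the SCTR siRNA array and 2053 on the control array. Its difference was 1.48, and 1.52 by its other probe. IL6ST, which encodes the shared receptor chain gp130, was at -0.12. LIF was detected on the SCTR siRNA array only, at a detection p of 0.0078, and IL3RA on neither. The intensity of LIF was 162.6 on the SCTR siRNA array, close to the detection limit, and 125.5 on the control array.

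Cells that use CSF1R in the body were looked for through 30 monocyte and macrophage markers, of which 7 had a named probe. The summed intensity of the 7, with background included, was 22202 on the SCTR siRNA array and 14898 on the control array. CD14 alone was higher by more than this sum was, so the sum does not describe the markers as a group. CD14, a co-receptor for bacterial lipopolysaccharide, had intensities of 13060 on the SCTR siRNA array and 3934 on the control array, a difference of 1.78. CD68, a lysosomal glycoprotein found in many cell types, had 6292 on the SCTR siRNA array and 9079 on the control array, a difference of -0.52. ITGB2 (0.78), HLA-DRA (0.73) and CD86 (0.51) were within 2-fold by their brightest probes, with 1.01 for ITGB2 and 1.57 for HLA-DRA by their other probes.

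FCGR2A was detected on the control array only, at an intensity of 167.8 close to the detection limit, against 145.4 on the SCTR siRNA array. AIF1 was detected on neither array. The defining leukocyte and macrophage genes PTPRC, ITGAM, CD163, TYROBP and the C1Q genes had no named probe, so their levels are not known. The part of such cells in the CSF1R values was not tested. Among fibroblast and endothelial markers 1 of 13 had a named probe, COL1A1, detected on the SCTR siRNA array only. Its intensity was 165.9 there, close to the detection limit, and 119.3 on the control array.

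Some markers of the labelled cell type were also higher with SCTR siRNA. The 5 measured basal markers were all positive, against 44.5% of all genes. They had a median of 1.05 and were led by LAMB3 (2.14) and EGFR (1.81, and 1.24 by its other probe), while CDH3 (0.99) was under 2-fold. Of these 4 were past 2-fold, with ITGB4 at the limit (1.0), against 9.74% of all genes. The count was 3 without background correction and with an offset of 50, 2 under median scaling and 4 in the authors' values. Their summed intensity was 69957 on the SCTR siRNA array and 29876 on the control array. Of the 4 epithelial markers detected on both arrays, CDH1 was past 2-fold at 1.79, while EPCAM (0.82), DSP (0.71, and 0.11 by its other probe) and KRT8 (0.07) were not. Their part in the CSF1R difference was not tested.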

How the data were processed

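The non-normalized table that the authors deposited gives an intensity and a detection p-value for 47323 probes per array, made with GenomeStudio 2011.1 per the submitters' processing notes, and 7 probes without a signal were left out. The authors' deposited processed table holds log2 values for 16871 probes. Both of its columns have a median of 8.57 and follow the log2 intensities of their own array (r = 1.00), so they are uncentred levels, and their normalization is not given in the sources used here. Only probes of that table carry platform symbols, 13060 of them with 1 symbol, 3 with several, left unnamed, and 3808 with none. Gene IDs of 13054 matched RefSeq (GRCh38.p14), which changed 0 symbols, and promoter windows matched 1 of the 3 genes.

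Here limma 3.58.1 (R 4.3.3) corrected the intensities by a normal-exponential fit with an offset of 16, deriving the negative control mean and SD from the detection p-values. Quantile normalization over all probes and log2 followed. A probe was detected at a detection p under 0.01, and the brightest probe detected on both arrays stood for a gene. Differences are SCTR siRNA minus control siRNA. For a gene detected on 1 array, the dim side was taken at its own level or at that array's lowest detected level (5.91 with SCTR siRNA and 6.04 with control siRNA), whichever was higher, and the fold is written as at least that size, on this background-corrected scale. With 1 array per group no test was made, and 2-fold was a rule of size. Background correction and normalization were tested on simulated data, with log2 differences of 1 or 2 in either direction put into probes detected on both arrays. Only probes with a mean intensity well above background were used for this. Differences as large as that of CSF1R, differences from a control level as dim as its own, and the bounds were not part of that test.

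The members and all 12 gene lists were chosen with earlier results of these data known. Named genes were the members, up to 6 genes per list ranked by absolute difference, the 5 genes nearest to CSF1R in difference and the 5 nearest named genes on each side of each member. Further list members were named after their values were seen, such as RUNX1, LYN, SRC, PIK3R1, CBL, MYC and DUSP1. Other background treatments, scalings, detection limits and the authors' values were tried as alternatives.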

Additional observations from a re-analysis of the deposited data

How the results depend on the processing

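CSF1R was positive and over 2-fold under every alternative run, from 3.48 to 4.60. It was smaller by more than 1.5-fold without background correction (3.49) and in the authors' processed values (3.48), and with an offset of 50 it was 4.06. The stricter detection p of 0.005, chosen after seeing the data, gave a bound of 4.45. The count of genes at least 2-fold lower, 731, fell to 394 in the authors' values and 417 with uncorrected background, and between 583 and 870 under the other alternatives. The count at least 2-fold higher, 844, lay between 615 and 998. Of 114 other genes from the lists, the neighbours and the genes nearest to CSF1R with a probe detected on both arrays, 30 differed by 2-fold or more. Among all genes detected on both arrays, 9.74% were higher by that much and 8.44% were lower. Many of the 114 were named for the size of their difference, so the count of 30 is not read as an excess. Under another background treatment, median scaling or the authors' values, 0 of the 30 turned sign. ARHGEF37, ITGB4 and PDGFD came under 2-fold in the authors' values and with uncorrected background, ITGB4 and ARHGEF37 with an offset of 50, and CAV1 and ITGB4 under median scaling. HBEGF (2.97 and 2.99), ABCA12 (3.09 and 3.08) and SOCS3 (-1.0 and -1.04) were smaller by over 1.5-fold in the authors' values and with uncorrected background. CEBPD passed 2-fold under median scaling and CDH3 in the authors' values. No value could be given for CSF1 or IL34, which had no named probe, and CSF1R had no other named probe to try. No paired analysis was possible because each group has 1 array. The control intensity of CSF1R, 163.9 over a background of 107.1, limits how precisely its fold can be known.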
